A study of Mus musculus with 6 samples.

Results

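The 10 transcripts described here are Atf3, the Fos family members Fos, Fosb and Fosl2, the Jun family members Jun, Junb and Jund, and the immediate early genes Egr1, Nr4a1 and Dusp1. They were followed in mouse white adipose tissue, in 3 libraries from the Rb1 group, given ginsenoside Rb1 intraperitoneally at 14 mg/kg per day, and 3 libraries from the CTR group, given intraperitoneal saline. Both groups therefore received injections, and ginsenoside Rb1 is a triterpene saponin of ginseng. The title of the study places it in work on obesity and myostatin. The strain, age and sex of the mice, the fat depot, the diet and the days of dosing are not stated in the labels, which also do not say whether each library came from a separate mouse, so the spread between libraries may be partly technical. Atf3 and Dusp1 were selected on their counts, which had been seen to be lower with Rb1 in these libraries, and the other members were chosen by name as AP-1 and immediate early genes. All 10 were found among the 22040 genes of the table, and all 10 were among the 14093 genes with enough counts to be tested. Because the selection used the contrast of Rb1 with CTR, the members' differences between the groups are given as a description. No p-value is printed for a member. Where members are counted by a test or an ordering, the share of all genes stands beside the count or is said not to be given. Nothing is read from these counts.

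AP-1 is a family of transcription factor dimers assembled from Fos, Jun and ATF proteins, which pair through a leucine zipper and contact DNA through an adjoining basic region. Immediate early genes are switched on within minutes of a stimulus, by factors already present in the cell, and their transcripts are short-lived. Mitogens, hormones acting through cyclic AMP, inflammatory signals and the handling of tissue all induce them. In fat they are known from the first hours of adipocyte differentiation and from macrophage activation, and whole tissue holds RNA of both cell types.

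The upstream sequences of the members were searched for known motifs. Those of the 4 members whose groups did not overlap (Atf3, Nr4a1, Dusp1 and Jun) and of Fos, whose level varied most among the Rb1 libraries, are given 5′ to 3′ on the gene's own strand, ending at the base before the RefSeq transcription start, from RefSeq on GRCm38.p6. The Dusp1 stretch ends earlier, at position -48, before annotated exons begin, and the last 7 bases of the Atf3 stretch, which hold its marked CGTCA, lie in an annotated exon. Capitals mark TGACG, the core of the site bound by ATF and CREB factors, on either strand (CGTCA), and the longer TGACGTCA. They also mark the TGACATCA of Jun, which does not contain TGACG, and the TATAAA of Fos.
Atf3: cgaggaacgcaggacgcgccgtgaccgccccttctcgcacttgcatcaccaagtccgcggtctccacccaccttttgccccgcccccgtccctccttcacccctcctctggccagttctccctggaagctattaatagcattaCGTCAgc
Nr4a1: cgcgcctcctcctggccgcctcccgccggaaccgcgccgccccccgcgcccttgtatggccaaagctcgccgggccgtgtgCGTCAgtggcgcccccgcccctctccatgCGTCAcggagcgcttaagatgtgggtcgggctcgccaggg
Dusp1: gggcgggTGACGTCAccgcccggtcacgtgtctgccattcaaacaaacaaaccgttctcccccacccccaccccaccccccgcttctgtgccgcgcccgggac
Jun: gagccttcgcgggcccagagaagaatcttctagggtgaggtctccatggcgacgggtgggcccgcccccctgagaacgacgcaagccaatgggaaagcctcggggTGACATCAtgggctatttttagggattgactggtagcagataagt
Fos: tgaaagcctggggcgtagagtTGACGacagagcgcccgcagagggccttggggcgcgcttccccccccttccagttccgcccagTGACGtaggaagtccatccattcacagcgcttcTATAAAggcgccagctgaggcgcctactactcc
These stretches lie at chr1:191183334-191183483 on the minus strand for Atf3, chr15:101266696-101266845 on the plus strand for Nr4a1, chr17:26508520-26508622 on the minus strand for Dusp1, chr4:95052223-95052372 on the minus strand for Jun and chr12:85473740-85473889 on the plus strand for Fos. The full cyclic AMP response element TGACGTCA was present from -143 to -136 in the Dusp1 promoter, and 1.79% of 32851 RefSeq promoters of the same length (250 bases before to 50 after the start) held it on either strand. Jun carried TGACATCA from -45 to -38; the pattern TGACNTCA, which covers both sites, was searched after the sequences had been read and occurs in 8.83% of promoters. TGACG occurred in 6 of the 9 members with a promoter in the table (Atf3, Dusp1, Fos, Fosb, Junb and Nr4a1), against 20.8% of all promoters, and includes the TGACGTCA of Dusp1. Fos held TATAAA from -33 to -28 and Junb held it at 1 to 6, against 13.6% of all promoters. Positions count from the RefSeq start. For Junb the base before that start is chr8:84978749 on the minus strand, and the annotated gene begins at 84978718. The Junb match thus lies upstream of the annotated gene. GGGCGG, the GC box, was found in 7 of 9 members and 35.7% of promoters. The AP-1 site TGANTCA (7.81% of promoters) and the CArG box of serum response factor (1.63%) were found in none of the 9 windows, which says only that these letters are not within them. The windows follow RefSeq starts. The base before the Jund start is chr8:70697738, well upstream of the annotated gene at 70698949. All 150 bases before the Fosl2 start lie in annotated exons. The printed stretches of Atf3, Nr4a1 and Dusp1 lie inside the annotated genes, which begin at chr1:191218039, chr15:101254269 and chr17:26562128. The member counts therefore describe these windows, which do not all hold the promoter at the annotated gene start. All motifs were searched on both strands, and a match does not show binding.

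Of the 10 members, 9 had a negative log2 fold change, and the median over the members was -0.80, against 0.01 over all genes tested, of which 48.7% were negative. Without CTR replicate 1 the members' median was -0.52. Library values are given in CPM, the counts of a gene relative to the library total, scaled by the trimmed mean of M-values (TMM). The 3 Rb1 libraries lay entirely below the 3 CTR libraries for 4 members, Atf3, Jun, Nr4a1 and Dusp1, and 9.74% of all genes tested had the same ordering. The same 4 had a negative fold change and an unadjusted p under 0.05 in edgeR's quasi-likelihood test, which 7.54% of all genes had. With Benjamini-Hochberg adjustment across the table edgeR called no member, and 1 gene in all, or 0.0071% (Xiap, higher with Rb1 and named here after its value was seen). DESeq2, a second count model, called Atf3, Nr4a1 and Dusp1 lower, 3 of the 10, and 2.19% of all genes. Atf3 and Dusp1 are in the members' median and in each of these counts except the edgeR calls. They were selected for being lower in these libraries, so the median and the counts in part restate that choice. Jun and Nr4a1, the other members in the counts of lower members, were chosen by name.

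**Figure D1:**
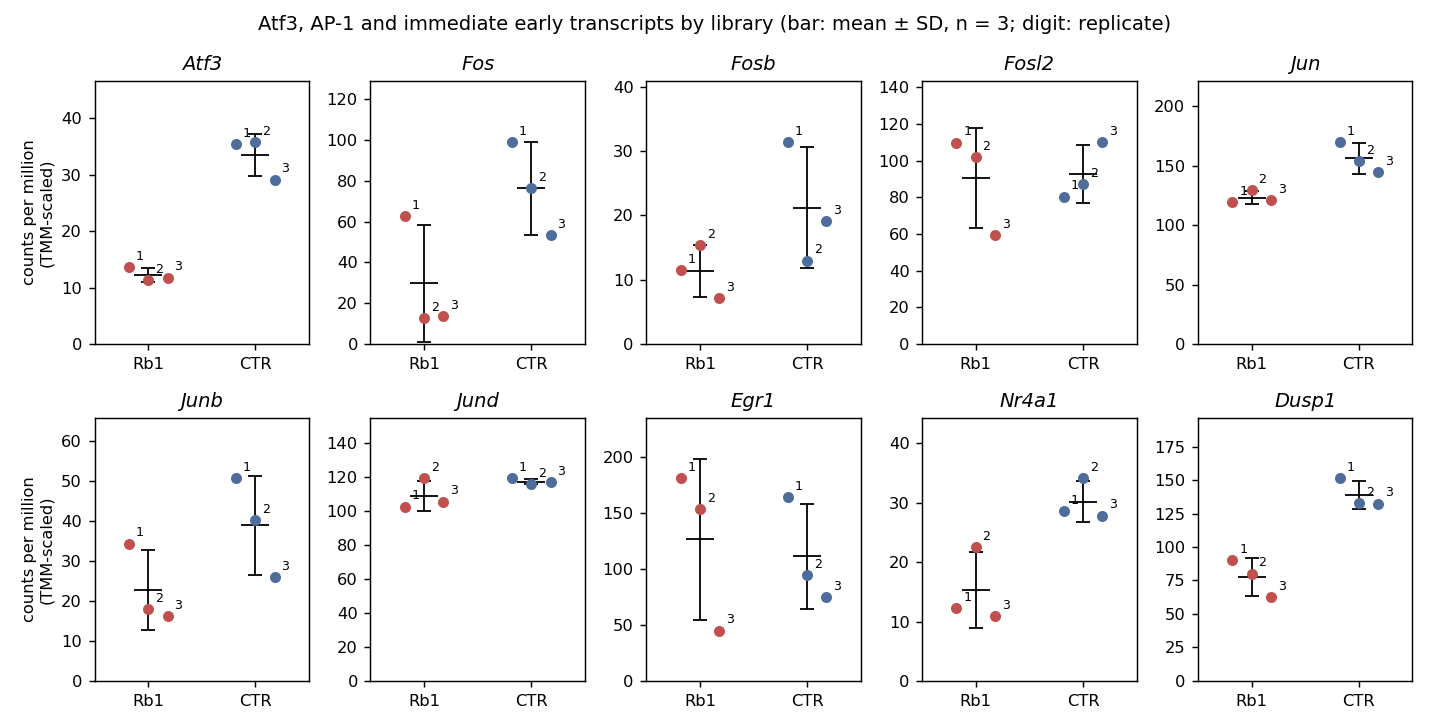
Level of each of the 10 transcripts in every library, in TMM-scaled CPM on linear axes from 0, Rb1 in red on the left and CTR in blue on the right. Each point is 1 library with its replicate number, and the bars are the mean and SD of 3 libraries. Atf3, Jun, Nr4a1 and Dusp1 have no Rb1 point as high as the lowest CTR point, while Fos has Rb1 replicate 1 at 62.8 CPM and the other Rb1 libraries at 12.9 and 13.8 CPM.

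Atf3 (ENSMUSG00000026628, chr1:191170296-191218039 on GRCm38, minus strand) encodes a basic leucine zipper factor of the ATF/CREB family that is induced by cellular stress and, in macrophages, by Toll-like receptor signals, where it limits inflammatory gene transcription. Its TMM CPM was 13.7, 11.4 and 11.8 in Rb1 replicates 1, 2 and 3, and 35.5, 35.9 and 29.2 in CTR replicates 1, 2 and 3. The groups were far apart, and within each group the highest library was no more than 1.20 times (Rb1) or 1.23 times (CTR) the lowest. The raw counts behind these levels were 289, 168 and 277 in Rb1 libraries and 716, 847 and 579 in CTR libraries. The means were 12.3 ± 1.23 CPM in the Rb1 group and 33.5 ± 3.75 CPM in the CTR group (SD, n = 3 each), which gave a log2 fold change of -1.45 ± 0.14 (SE). Atf3 thus stood at 36.7% of its CTR level.

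Fos (ENSMUSG00000021250, chr12:85473890-85477273, plus strand) is the founding partner of Jun in AP-1 and a standard readout of recent stimulation. It measured 62.8, 12.9 and 13.8 CPM in Rb1 replicates 1, 2 and 3, and 99.0, 76.3 and 53.4 CPM in CTR replicates 1, 2 and 3. Rb1 replicate 1 lay inside the CTR range, whereas Rb1 replicates 2 and 3 lay far below it. Rb1 replicate 1 was 4.72 times the mean of the other 2 Rb1 libraries. The highest Rb1 value was 4.88 times the lowest, and this ratio was smaller in 99.3% of the 8801 genes with a mean between 10 and 200 CPM. The Fos means were 29.8 ± 28.6 CPM in the Rb1 group and 76.2 ± 22.8 CPM in the CTR group (SD, n = 3 each). The log2 fold change was -1.35 ± 0.63 (SE) with all libraries, -2.51 when Rb1 replicate 1 was left out and -0.99 when Rb1 replicate 2 was, so its size depended on which Rb1 library was included. Rb1 replicate 1 was also the library with the highest summed endothelial markers, 2478 CPM over 6 genes against 1402 and 1653 CPM in the other Rb1 libraries and 1401 to 1637 CPM in CTR libraries. It had the lowest summed macrophage markers too, and the part of cell content in its Fos level was not tested.

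Fosb (ENSMUSG00000003545, chr7:19302696-19310051, minus strand), a Fos relative whose product accumulates on repeated stimulation in neurons, was the least abundant member per kilobase. It measured 11.6, 15.4 and 7.20 CPM in Rb1 replicates 1, 2 and 3, against 31.4, 13.0 and 19.1 CPM in CTR replicates 1, 2 and 3. CTR replicate 2 lay below Rb1 replicate 2, so the groups overlapped. Its log2 fold change was -0.90 ± 0.39 (SE), and -0.50 without CTR replicate 1. Fosl2 (ENSMUSG00000029135, chr5:32135801-32157842, plus strand) encodes Fra-2, a Fos protein without the strong activation domain of Fos. Its levels were 109.8, 102 and 59.4 CPM in Rb1 replicates 1, 2 and 3, and 80.4, 87.2 and 110.2 CPM in CTR replicates 1, 2 and 3. The groups overlapped widely, with Rb1 replicate 3 alone below the CTR range. The Fosl2 log2 fold change was -0.04 ± 0.24 (SE), and it turned positive, at 0.19 without Rb1 replicate 3 and 0.10 without CTR replicate 3.

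The Jun genes are the obligate partners of Fos proteins and also pair with each other and with ATF proteins. Jun (ENSMUSG00000052684, chr4:95049034-95052222, minus strand), a strong activator, measured 119, 129 and 121 CPM in Rb1 replicates 1, 2 and 3, and 170, 154 and 145 CPM in CTR replicates 1, 2 and 3. The groups did not overlap, and the Rb1 libraries lay close together. The means were 123 ± 5.24 CPM in the Rb1 group and 156 ± 12.9 CPM in the CTR group (SD, n = 3 each), which gave a log2 fold change of -0.34 ± 0.10 (SE). Exons of the antisense gene Junos cover 232 bases of Jun, and reads from the 2 genes cannot be told apart without a known strand setting.

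Junb (ENSMUSG00000052837, chr8:84974484-84978718, minus strand) encodes a weaker activator that can restrain Jun. Its levels were 34.3, 18.0 and 16.1 CPM in Rb1 replicates 1, 2 and 3, and 50.6, 40.2 and 25.9 CPM in CTR replicates 1, 2 and 3. As with Fos, Rb1 replicate 1 stood above the other 2 Rb1 libraries and inside the CTR range. The log2 fold change was -0.77 ± 0.35 (SE), -1.19 without Rb1 replicate 1 and -0.54 without CTR replicate 1. Junb shares 173 exon bases with Prdx2 on the opposite strand.

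Jund (ENSMUSG00000071076, chr8:70698949-70700616, plus strand) is the Jun gene that many resting cells express steadily. It measured 102, 119 and 105 CPM in Rb1 replicates 1, 2 and 3, and 119, 116 and 117 CPM in CTR replicates 1, 2 and 3. Rb1 replicate 2 matched the CTR libraries, and Rb1 replicates 1 and 3 were slightly lower. The CTR libraries differed by a factor of 1.03 at most, and this ratio was smaller in only 1.82% of the 8801 genes. The log2 fold change was -0.10 ± 0.10 (SE). The antisense gene Gm11175 covers 877 of the 1668 exon bases of Jund, so its level is uncertain to that extent.

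Egr1 (ENSMUSG00000038418, chr18:34859823-34864984, plus strand), a zinc finger factor induced through MAP kinase and serum response factor, was the only member with a positive fold change. It measured 181, 154 and 45.0 CPM in Rb1 replicates 1, 2 and 3, against 165, 94.6 and 75.3 CPM in CTR replicates 1, 2 and 3. The Rb1 libraries held both the highest and the lowest values. Means were 127 ± 71.9 CPM in the Rb1 group and 112 ± 47.0 CPM in the CTR group (SD, n = 3 each), and the log2 fold change of 0.18 ± 0.52 (SE) ran between -0.17, when Rb1 replicate 1 was left out, and 0.59, when Rb1 replicate 3 was. Rb1 replicate 1 was the highest Rb1 library for both Egr1 and Fos and Rb1 replicate 3 was low for both, while Rb1 replicate 2 was high for Egr1 and low for Fos.

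Nr4a1 (ENSMUSG00000023034, chr15:101254269-101274795, plus strand) encodes the orphan nuclear receptor Nur77. It measured 12.3, 22.6 and 10.9 CPM in Rb1 replicates 1, 2 and 3, and 28.6, 34.1 and 27.8 CPM in CTR replicates 1, 2 and 3. The groups did not overlap, and Rb1 replicate 2 came closest to CTR. Means were 15.3 ± 6.36 CPM in the Rb1 group and 30.2 ± 3.43 CPM in the CTR group (SD, n = 3 each), which gave a log2 fold change of -0.99 ± 0.28 (SE). DESeq2 called Nr4a1 in 1 of 6 repeats that each left out a library, the repeat without Rb1 replicate 2, where its log2 fold change was -1.38. Fos, Jun and Junb were also called in 1 of the 6 repeats each, and Atf3 and Dusp1 in all 6. The share of all genes called in these repeats is not given.

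Dusp1 (ENSMUSG00000024190, chr17:26505590-26562128, minus strand) encodes a nuclear phosphatase that switches off p38, JNK and ERK MAP kinases and is itself induced by them and by glucocorticoids. Its levels were 90.3, 80.2 and 62.4 CPM in Rb1 replicates 1, 2 and 3, and 151, 132.9 and 132.5 CPM in CTR replicates 1, 2 and 3. The groups were well apart, with every Rb1 library at or under 0.651 of the CTR mean. Means were 77.6 ± 14.1 CPM in the Rb1 group and 139 ± 10.7 CPM in the CTR group (SD, n = 3 each), which gave a log2 fold change of -0.84 ± 0.15 (SE). With each library left out in turn the value stayed between -0.96 and -0.70 for Dusp1 and between -1.54 and -1.39 for Atf3. Dusp1 shares 11 exon bases with Ergic1.

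**Figure D2:**
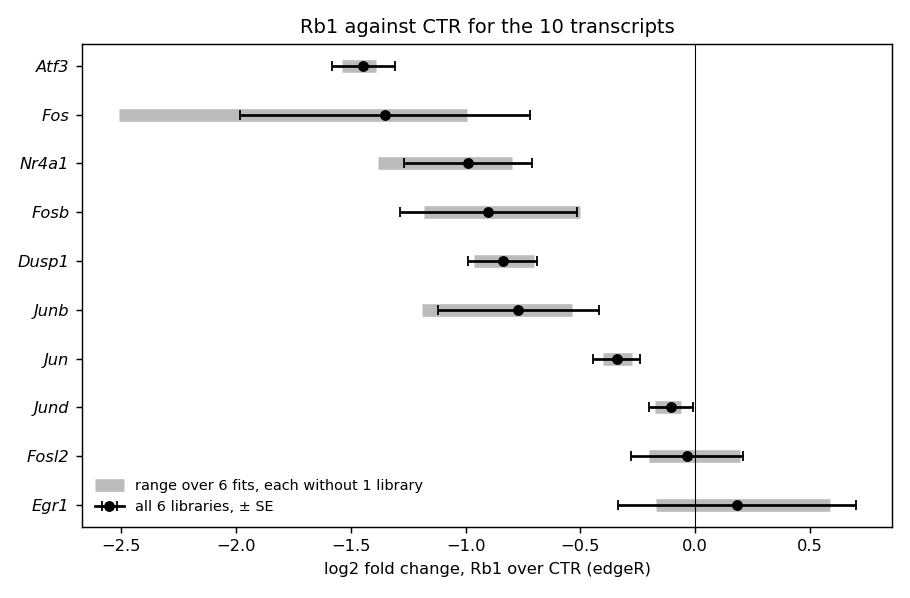
Log2 fold change of Rb1 over CTR for the 10 transcripts from edgeR (point, with SE bar) and the range over 6 fits that each left out 1 library (grey band). The bands of Jund, Jun, Atf3 and Dusp1 are narrow, that of Fos runs between -2.51 and -0.99, and those of Fosl2 and Egr1 cross 0.

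The members did not move as a block across libraries. CTR replicate 1 held the highest value for 6 of the 10, and Rb1 replicate 3 the lowest for 6 of the 10. Relative to each gene's CTR mean, the median member stood at 0.794, 0.738 and 0.409 in Rb1 replicates 1, 2 and 3, while the median of all genes lay between 0.990 and 1.002 in the same libraries. All 10 members were below their CTR mean in Rb1 replicate 3, 8 were in Rb1 replicate 1 and 7 in Rb1 replicate 2. Of the CTR libraries, 9 members were below the CTR mean in replicate 3, 6 in replicate 2 and 2 in replicate 1. The summed CPM of the 10 was 738, 664 and 453 in Rb1 replicates 1, 2 and 3, and 930.2, 783 and 735 in CTR replicates 1, 2 and 3. By the root mean square difference of log2 CPM after centring each gene on its own mean over the 6 libraries, the closest members were Jun and Jund (0.134), then Jun and Dusp1 (0.303), and the most distant were Fos and Jund (1.16). This measure is small for any pair of steady genes, and it is given as a description. Without Rb1 replicate 1, Fos and Junb joined the members whose groups did not overlap, making 6 of 10, when 15.9% of all genes had that ordering.

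**Figure D3:**
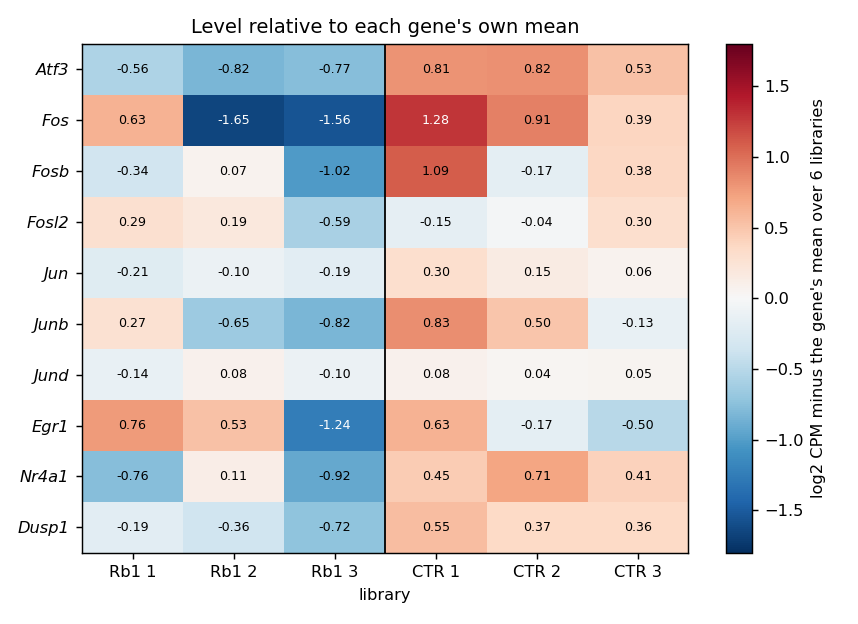
Log2 CPM of each transcript in each library minus the gene's own mean over the 6 libraries, Rb1 libraries left of the line and CTR libraries right of it. Atf3 and Dusp1 are below 0 in all Rb1 libraries and above 0 in all CTR libraries, and Fos is at 0.63 in Rb1 replicate 1 and at -1.65 and -1.56 in the other Rb1 libraries.

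To compare levels between genes, TMM CPM was divided by the length in kilobases of the longest annotated coding transcript. In the Rb1 group the level per kilobase was highest for Jund, at 65.3 ± 5.28, followed by Dusp1 at 39.0 ± 7.10, Jun at 38.6 ± 1.64 and Egr1 at 28.2 ± 16.04 (SD, n = 3). Fos at 14.1, Fosl2 at 13.8 and Junb at 12.6 came next, and Atf3 at 6.20, Nr4a1 at 5.98 and Fosb at 3.01 were lowest. Neighbours from Dusp1 down to Junb overlapped in range, as did Atf3 and Nr4a1, and the steps from Jund to Dusp1, from Junb to Atf3 and from Nr4a1 to Fosb did not overlap. In the CTR group Jund at 70.2 ± 1.01 and Dusp1 at 69.8 ± 5.37 headed the order with overlapping ranges, above Jun at 48.9 ± 4.04 (SD, n = 3). Fos at 36.2, Egr1 at 24.9, Junb at 21.5, Atf3 at 16.9, Fosl2 at 14.2 and Nr4a1 at 11.8 formed a chain of overlapping neighbours that began with Jun, and Fosb at 5.6 lay below it. By this length Dusp1 stood beside Jun in the Rb1 libraries and beside Jund in the CTR libraries. The merged exons of Dusp1 span 3311 bases, against 1990 for its longest coding transcript. For Jun both lengths are 3189 bases. The place of Dusp1 in the order therefore depends on the length chosen.

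The makeup of the Fos family also differed between libraries. Of the summed level per kilobase of Fos, Fosb and Fosl2, Fos itself made up 60.0, 23.7 and 37.3% in Rb1 replicates 1, 2 and 3, and 69.5, 68.3 and 53.6% in CTR replicates 1, 2 and 3. The groups overlapped through Rb1 replicate 1. Fosl2 accounted for 48.7 ± 13.6% of the family in the Rb1 group and 26.4 ± 8.82% in the CTR group (SD, n = 3 each), so that Fosl2 outweighed Fos in Rb1 replicates 2 and 3 and in none of the other 4 libraries. The Fos family sum was 31.0 ± 16.7 in the Rb1 group and 55.9 ± 10.5 in the CTR group, in CPM per kilobase. The Jun family was steadier, with a sum of 117 ± 5.96 in the Rb1 group and 141 ± 11.5 in the CTR group and ranges of 110.1 to 121.8 and 129.7 to 152.6 that did not overlap. Jund made up 56.0 ± 3.42% of it in the Rb1 group and 50.1 ± 3.65% in the CTR group. The Jun family sum exceeded the Fos family sum in every library.

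**Figure D4:**
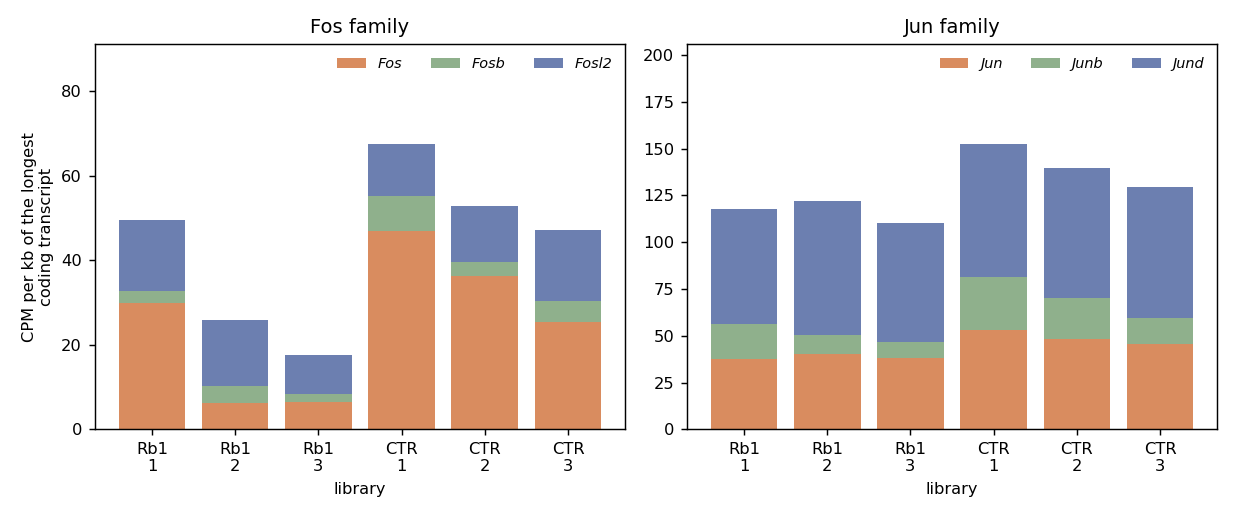
Stacked levels of the Fos family (left) and the Jun family (right) in each library, in TMM CPM per kilobase of the longest coding transcript, from 0. The Fos segment shrinks to 23.7% and 37.3% of its bar in Rb1 replicates 2 and 3, while the Jun family bars run between 110.1 and 152.6 over the 6 libraries.

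The genes whose library pattern was most like that of Atf3, by the same root mean square measure over 6 libraries and among 12930 genes that averaged 1 CPM or more, were Clec4a2, a C-type lectin receptor of myeloid cells (0.0956), Il7r, the interleukin 7 receptor chain (0.111), Kntc1, a kinetochore protein (0.122), Itgax, the integrin CD11c of macrophages and dendritic cells (0.130), and Tlr13, an endosomal receptor for bacterial RNA (0.138). Itgax measured 25.7, 22.7 and 26.3 CPM in Rb1 libraries and 86.7, 69.9 and 62.9 CPM in CTR libraries. Those most like Dusp1 were Trim29 (0.0645), Lonrf3 (0.0959), Gpnmb, a glycoprotein of lipid-laden macrophages (0.0978), Hmga1b (0.110) and Cdkn2b, a cyclin-dependent kinase inhibitor (0.116). Gpnmb measured 269, 240.2 and 209.7 CPM in Rb1 libraries and 516, 378 and 431 CPM in CTR libraries. The Il7r values were 9.66, 8.41 and 9.41 CPM in Rb1 libraries and 29.2, 24.1 and 19.9 CPM in CTR libraries. Trim29, the nearest to Dusp1, was close to the bound of 1 CPM, at 0.809 to 1.14 CPM in Rb1 libraries and 1.61 to 1.98 CPM in CTR libraries. Kntc1 was also low, at 0.852 to 1.04 CPM in Rb1 libraries and 2.42 to 3.56 CPM in CTR libraries. The likeness does not bear on shared control.

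Macrophage markers were lower in the Rb1 libraries as well, beside the lower Atf3 and Dusp1 values. Of 10 markers, 9 had a negative log2 fold change, the median was -0.84, 7 had an unadjusted edgeR p under 0.05 and were lower, edgeR called none over all genes, and DESeq2 called 5 lower. None of the defining markers was at 0. Their summed level, in CPM of the library total without TMM scaling as for the other marker sums, was 1071, 1662 and 1512 CPM in Rb1 replicates 1, 2 and 3, and 1935, 2239 and 1858 CPM in CTR replicates 1, 2 and 3, without overlap. In bulk tissue, fewer cells of a type and less RNA per cell cannot be told apart. Divided by that sum, Atf3 was 13.3, 6.55 and 7.48 CPM per 1000 CPM of markers in Rb1 libraries and 19.3, 16.1 and 15.4 in CTR libraries. Nr4a1 was 12.0, 13.0 and 6.94 in Rb1 libraries and 15.6, 15.3 and 14.7 in CTR libraries on this scale. Dusp1 was 88.0, 46.1 and 39.5 in Rb1 libraries and 82.5, 59.6 and 70.1 in CTR libraries. On this scale 7 of the 10 members overlapped between the groups (Dusp1, Jun, Fos, Fosb, Fosl2, Junb and Egr1). Atf3 and Nr4a1 were lower in every Rb1 library, as were 1.04% of all genes, and Jund was higher, as were 37.8%. Jund ranged over 66.8 to 99.9 in Rb1 libraries and 51.9 to 64.9 in CTR libraries. Lyz2, a lysozyme of macrophages with a log2 fold change of -0.45, made up 41.8 to 50.3% of the marker sum in Rb1 libraries and 41.2 to 48.0% in CTR libraries. The outcome depended on the marker used as divisor: Itgax (-1.55) and Trem2 (-1.42) had fold changes near that of Atf3 (-1.45), and Cd163 (0.23) and Mrc1 (-0.18) had smaller ones. With each of the 10 markers taken singly as divisor, a choice made after seeing the data, Atf3 was lower without overlap for 3 (Cd68, Lyz2 and Cd163) and overlapped for 7. Nr4a1 was lower for 4 (Csf1r, Lyz2, Mrc1 and Cd163) and overlapped for 6. Dusp1 overlapped for 9 and was higher in every Rb1 library relative to Itgax, as were Fosl2, Jun, Junb and Jund. Jun was higher for 3 markers and Jund for 5. The share of all genes is not given for single divisors, and nothing is read from these counts. Which cells carried the members' transcripts was not measured, and the part of macrophage content in their levels was not tested.

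Markers of other cell types also differed between libraries. Adipocyte markers, the check of the labelled tissue, summed to 17630 to 23530 CPM in Rb1 libraries and 18400 to 21340 CPM in CTR libraries. Skeletal muscle markers reached 27450 CPM, or 2.75% of counts, in CTR replicate 2, against 36.2 to 158 CPM in Rb1 libraries and 332 and 381 CPM in the other CTR libraries, so the summed muscle level did not overlap between the groups; 10 of 10 muscle markers had negative values. CTR replicate 2 was the highest library for 2 members, Atf3 and Nr4a1, whose log2 fold changes without it were -1.39 and -0.89. With the muscle markers removed from the table the members' median was -0.80, and without CTR replicate 2 it was -0.81. Erythroid markers summed to 428, 421 and 643 CPM in Rb1 replicates 1, 2 and 3, and 410.3, 238 and 251 CPM in CTR replicates 1, 2 and 3, so they were higher in every Rb1 library. T and NK cell markers were sparse, at 5.25 to 16.3 CPM summed in Rb1 libraries and 8.13 to 26.4 CPM in CTR libraries, and neutrophil markers summed to at most 7.46 CPM in Rb1 libraries and 3.97 CPM in CTR libraries. The part of these cell types in the members' levels was not tested. Library totals ran between 15440339 and 24501446 counts.

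Among the other genes of the pathway, edgeR called none over all genes in any of the lists, all of which were drawn up with earlier results of these data known. The other AP-1 leucine zipper factors numbered 10 tested genes with 5 negative values and a median of -0.02. Fosl1, a further Fos relative, was at 0.568, 0.407 and 0.511 CPM in Rb1 libraries and 1.63, 1.61 and 1.01 CPM in CTR libraries (log2 fold change -1.49, edgeR adjusted p = 0.215, DESeq2 adjusted p = 0.104). Atf2, a partner of Jun at cyclic AMP elements, had 61.2, 61.1 and 60.9 CPM in Rb1 libraries and 48.5, 49.9 and 56.9 CPM in CTR libraries (0.24, edgeR adjusted p = 0.415). The small Maf genes Mafg (0.12) and Mafk (0.19) had edgeR adjusted p of 0.68 and 0.688. Fosl1 was lower and Atf2 higher in every Rb1 library than in any CTR library. Ccdc85b on the opposite strand shares 1163 of the 2033 merged exon bases of Fosl1, so the Fosl1 level is uncertain to that extent.

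Of 22 other immediate early genes 21 were tested, Egr4 being the exception, and 14 had negative values with a median of -0.23. Gadd45b, a stress-induced regulator of MAP kinase signalling, had 8.05, 2.64 and 5.37 CPM in Rb1 libraries and 21.1, 13.3 and 8.52 CPM in CTR libraries (log2 fold change -1.40, edgeR adjusted p = 0.323, DESeq2 adjusted p = 0.062). Ptgs2, which encodes the inducible cyclooxygenase, had 1.52, 2.10 and 1.75 CPM in Rb1 libraries and 3.12, 3.22 and 2.52 CPM in CTR libraries (-0.73, edgeR adjusted p = 0.327). The zinc finger gene Egr2 (-0.79) and Ier5 (-0.48) overlapped between groups. Gadd45b and Ptgs2 were the 2 with an unadjusted edgeR p under 0.05, and DESeq2 called no gene of the list.

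Of the other MAP kinase phosphatases, 8 of 9 had negative values, with a median of -0.31. Dusp8, which acts on JNK and p38, had 11.3, 15.9 and 12.3 CPM in Rb1 libraries and 22.9, 23.4 and 20.8 CPM in CTR libraries (log2 fold change -0.77, edgeR adjusted p = 0.195). DESeq2 called Dusp8 with all libraries (adjusted p = 0.00457) and in 3 of 6 repeats that left out a library, with a highest adjusted p of 0.0871. Dusp5, a nuclear ERK phosphatase, had a log2 fold change of -1.12 (edgeR adjusted p = 0.311, DESeq2 adjusted p = 0.134), and Dusp4, another nuclear phosphatase of this family, one of -0.42 (edgeR adjusted p = 0.371). Their libraries did not overlap between groups, and those of Dusp16 (-0.31) did.

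The upstream MAP kinases and serum response factors gave smaller values, 12 of 20 tested genes being negative with a median of -0.10 (Mapk10 was not tested). Srf, the serum response factor, had 49.2, 53.4 and 46.0 CPM in Rb1 libraries and 55.0, 68.4 and 58.4 CPM in CTR libraries (log2 fold change -0.29, edgeR adjusted p = 0.418). Rps6ka1, a ribosomal S6 kinase downstream of ERK, was at -0.46 (edgeR adjusted p = 0.319), Map2k7, a kinase of JNK, at -0.27 and Rps6ka5, a stress-activated kinase of histone H3, at 0.32. In the integrated stress response, a route to Atf3 induction, 6 of 10 values were negative with a median of -0.10. Ddit3, its CHOP factor, had 16.5, 15.9 and 14.8 CPM in Rb1 libraries and 20.7, 22.5 and 17.6 CPM in CTR libraries (-0.36, edgeR adjusted p = 0.378). Atf4, the central factor of that response, had 153, 101 and 131 CPM in Rb1 libraries and 145, 157 and 156 CPM in CTR libraries (-0.25, edgeR adjusted p = 0.611), and its targets Asns and Trib3 were at 0.37 and 0.25. Heat shock genes had 3 of 9 negative values and a median of 0.18, with Hspb1, a small chaperone, at 0.25 (edgeR adjusted p = 0.418) and Hspd1, the mitochondrial chaperonin, at 0.31. Hspa1a, the inducible Hsp70 gene, was at -0.65 with overlapping groups, and Dnajb1, its co-chaperone, at -0.27 without overlap.

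Genes known in other systems as AP-1 targets had 8 of 10 tested values negative and a median of -0.62, with Il6 not tested. Cd44, the hyaluronan receptor, measured 54.7, 48.3 and 53.0 CPM in Rb1 libraries and 89.8, 94.4 and 70.0 CPM in CTR libraries (log2 fold change -0.70, edgeR adjusted p = 0.174, DESeq2 adjusted p = 0.00194). Mmp9, a gelatinase, went the other way, with 7.72, 15.1 and 15.2 CPM in Rb1 libraries and 5.45, 5.67 and 6.80 CPM in CTR libraries (1.08, edgeR adjusted p = 0.254, DESeq2 adjusted p = 0.0238). DESeq2 called Cd44 in 5 of 6 repeats that left out a library, missing without CTR replicate 2 (adjusted p = 0.0504), and Mmp9 in 2 of 6. Plaur, the urokinase receptor, was at -0.71 (edgeR adjusted p = 0.292) without overlap, and Mmp13, collagenase 3, was at -1.804 with overlapping groups at 0.203 to 0.663 CPM in Rb1 libraries and 0.605 to 2.46 CPM in CTR libraries.

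**Figure D5:**
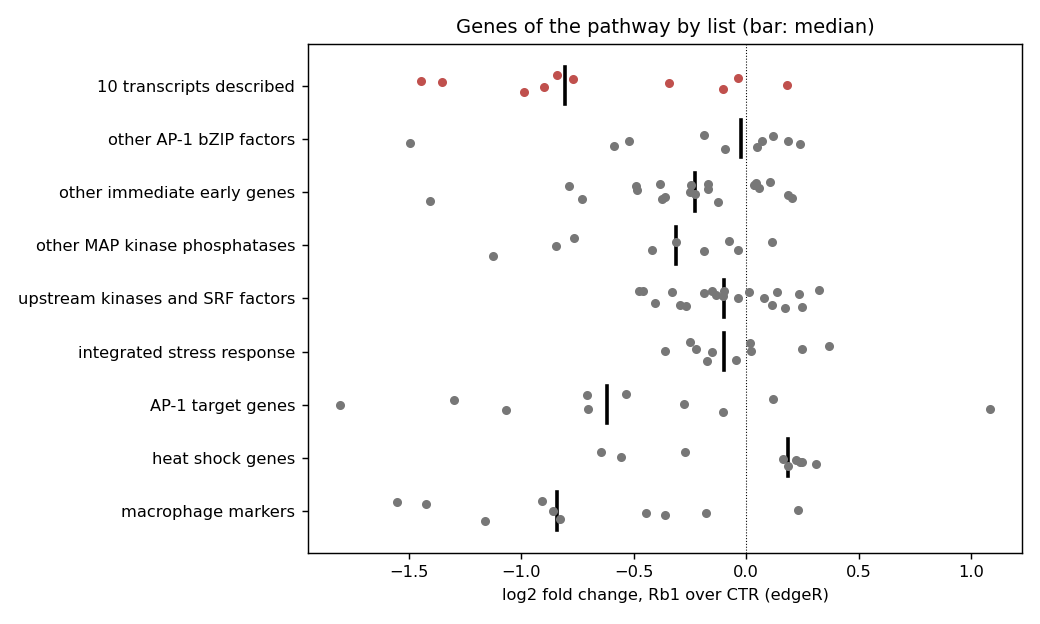
Log2 fold change of Rb1 over CTR from edgeR for each gene of the lists, with the list median as a vertical bar and 0 dotted. The 10 transcripts described have a median of -0.80, the AP-1 targets -0.62, the macrophage markers -0.84 and the heat shock genes 0.18, while the other AP-1 factors centre at -0.02. The 10 transcripts include Atf3 and Dusp1, which were selected for being lower in these libraries.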

How the data were processed

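White adipose RNA was sequenced in 3 Rb1 and 3 CTR libraries. Per the file headers, the authors deposited whole-number counts and FPKM for each Ensembl identifier. CASAVA 1.8, TopHat2 2.0.6 and mm10 (GRCm38) are named in the submitters' processing notes. The counting tool, annotation and strand setting are not stated there. Library totals of 15440339 to 24501446 counts set the precision.

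Counts were tested with edgeR 4.0.16 (quasi-likelihood, TMM, filterByExpr with a minimum count of 10, 14093 genes, Benjamini-Hochberg threshold 0.05) in R 4.3.3, with DESeq2 1.42.0 as an alternative; the procedure was tested on simulated data. Log2 CPM used a prior count of 2. Gene positions and transcript lengths came from GENCODE M21 and promoters from RefSeq. The other genes named were the 4 of each pathway list with the smallest p and the 5 nearest in pattern to Atf3 or Dusp1. The members and lists were chosen with earlier results of these data known. Alternatives were other size factors, no filter, DESeq2, each library left out, a replicate block and removal of muscle markers. Repeats of DESeq2 without each library and division by single macrophage markers were added after seeing the data.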

Additional observations from a re-analysis of the deposited data

How the results depend on the processing

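Over all genes, edgeR called 1 gene with all libraries and DESeq2 called 390 (307 lower, 83 higher); leaving out each library gave 1 to 4 in edgeR. The members' median log2 fold change was -0.80 and ran between -0.93 and -0.52 when a library was left out, at -0.80 with RLE size factors, without the filter and with muscle markers removed. It includes Atf3 and Dusp1, which were selected for being lower in these libraries. Non-overlapping members numbered 4 to 6 with a library left out, when 12.8 to 16.7% of all genes had that ordering, and 4 with RLE size factors, when 9.65% did. Egr1, positive with all libraries, ran between -0.17 and 0.59, with -0.17 without Rb1 replicate 1 (also with DESeq2) and -0.04 (-0.032 with DESeq2) without CTR replicate 3. Fosl2, negative with all libraries, ran between -0.20 and 0.20, with 0.19 (0.20 with DESeq2) without Rb1 replicate 3 and 0.10 (0.11 with DESeq2) without CTR replicate 3. The cause was not tested. Among the alternatives for single members other than the DESeq2 repeats without a library, 103 kept direction and side of the threshold, 3 passed it (Atf3, Nr4a1 and Dusp1 with DESeq2) and 4 changed sign. Same-numbered libraries correlated at 0.136, -0.109 and 0.018 in their deviations from group means over 14093 genes. With 3 libraries a group these deviations balance out within each group, so the correlations cannot decide whether the numbers pair the libraries. A replicate block gave 1 called gene and a members' median of -0.83. With 3 libraries a group and a common biological coefficient of variation of 24.8%, small differences between the groups cannot be resolved; the lowest value of any member was 7.20 CPM (Fosb in Rb1 replicate 3).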

Other observations

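The deposited FPKM understates several members relative to others. The gene length implied by count, total and FPKM exceeded the merged annotated exons in 93.1% of 11937 genes with more than 1 transcript, against 4.52% of 1218 genes with 1 transcript. For Fosb the implied length was 16525 bases, 4.37 times its longest coding transcript of 3782 bases, and for Dusp1 it was 5142 bases, 2.58 times its longest coding transcript of 1990 bases. For Jun and Jund, which have 1 transcript each, the implied and annotated lengths were equal, at 3189 and 1668 bases. For Egr1 and Junb the implied lengths, 7520 and 2301 bases, equalled the sum of their annotated transcripts. In deposited FPKM, Dusp1 averaged 14.95 ± 3.35 in the Rb1 group and 27.5 ± 3.13 in the CTR group, below Jun at 38.0 ± 1.45 in the Rb1 group and 49.8 ± 5.97 in the CTR group (SD, n = 3 each). Per kilobase of the longest coding transcript, by contrast, Dusp1 lay above Jun in the CTR group and level with it in the Rb1 group. That placement depends on the length chosen, since the merged exons of Dusp1 span 3311 bases. Comparisons of 1 gene between libraries are not affected, since the implied length is the same in every library.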
